A study of Mus musculus with 18 samples.

Results

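The 9 genes described here encode the antigen-presenting machinery of MHC class II and the ligands CD80 and CD86 of the B7 family. They were taken from a list by name, with no measured value in the rule, and all 9 were found among the 55487 genes of the deposited tables. All 9 passed the filter on low values, an organ mean of 1 TPM or more, and were tested. TPM is a share of a library's RNA corrected for transcript length.

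The libraries came from wild-type, untreated mouse regulatory T (Treg) cells, the CD4+Foxp3+ T cells that restrain immune responses. The cells were sorted fresh from peripheral blood, bone marrow, spleen, lung, lymph node and liver, with 3 poly(A) RNA libraries per organ and 18 in all. The sources used here do not give the sort gates, the age of the mice or the number of animals per library. Since nothing says that replicate libraries came from separate animals, p-values measure the spread between these libraries, which may be technical.

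MHC class II molecules are pairs of an alpha and a beta chain that hold peptides from the endosome and show them to the T cell receptor and CD4. The invariant chain CD74 fills their groove until the DM heterodimer (H2-DMa with H2-DMb) exchanges its remnant for peptide. The coactivator CIITA switches on these genes together, through a protein complex bound to the X and Y boxes of their promoters. Class II is known from B cells, dendritic cells and macrophages, and resting mouse T cells are generally held to transcribe little Ciita. CD80 and CD86 on such presenting cells bind CD28, which costimulates T cells, and CTLA-4, which Treg cells carry and with which they can strip the ligands from other cells.

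Of the 9 genes, 5 (6 start sites) had an upstream window in the RefSeq promoter table of GRCm38.p6. The stretches upstream of H2-Eb1 and H2-Aa are shown because they lie before class II genes that moved together and hold letters of the boxes searched. H2-Eb1 held an exact match to the letters of both boxes, and H2-Aa to those of the Y box only. Both lie in the class II region of chromosome 17, that of H2-Eb1 on the plus strand at chr17:34305753-34305862 and that of H2-Aa on the minus strand at chr17:34287842-34287947. Capitals mark AACNGATG, the 3′ end of the X box, and GATTGG, the core of the Y box, the latter on either strand (CCAATC is its reverse complement).
H2-Eb1: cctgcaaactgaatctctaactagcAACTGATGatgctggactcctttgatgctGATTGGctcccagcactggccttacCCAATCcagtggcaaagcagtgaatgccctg
H2-Aa: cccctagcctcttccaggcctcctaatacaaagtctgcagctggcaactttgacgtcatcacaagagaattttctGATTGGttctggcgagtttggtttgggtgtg
In the 250 bases before the start, searched on both strands, H2-Eb1 held AACNGATG at 89 to 82 bases and GATTGG at 60 to 55 and, on the other strand, at 35 to 30 bases upstream. H2-DMb1 held the same pair at 92 to 85 and 62 to 57 bases, and H2-Aa held GATTGG at 49 to 44 bases. Of 32851 mouse start sites, 1.98% had AACNGATG, 14.6% had GATTGG and 0.25% had both in this window. One H2-DMa start had GATTGG at 199 to 194 bases upstream, and neither run of letters was found upstream of the other H2-DMa start or of Cd80. A match of letters is a description and does not show binding. Only exact matches were searched, so a missing match does not show that a box is absent.

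In the GENCODE M21 annotation (mm10), the class II genes other than Cd74 sit together on chromosome 17: H2-DMa at chr17:34119541-34139101, H2-DMb1 at chr17:34153072-34160230, H2-Ab1 at chr17:34257689-34269419, H2-Aa at chr17:34282744-34287823 and H2-Eb1 at chr17:34305867-34316674. Cd74 lies on chromosome 18. Chromosome 16 carries Ciita at chr16:10480059-10528418, Cd86 at chr16:36603869-36666081 and Cd80 at chr16:38455561-38496335. TPM values count reads over the exons of each gene as a whole.

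Depth was derived from the smallest differences among low TPM values. On average 1 read on 1 kb of transcript was worth 0.0825 TPM in blood and 0.0875 in lymph node, with 0.116 for bone marrow, 0.157 for spleen, 0.233 for lung and 0.379 for liver, so low values are least certain in liver. The summed level of 10 Treg genes, Foxp3 among them, averaged 1405 TPM in blood, 2392 in bone marrow and 2990 to 3944 in the other 4 organs. All 10 were above 1 TPM in each organ. Neutrophil genes summed to 17863 TPM in blood and 45735 in bone marrow against 43.4 to 676.1 in the other organs, and platelet genes to 2755 TPM in blood against 3.28 to 76.1.

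Class II transcripts were present in the Treg libraries of every organ and followed a steep order across organs. The 6 class II genes (H2-Aa, H2-Ab1, H2-Eb1, Cd74, H2-DMa and H2-DMb1) summed to 3698 ± 129.7 TPM in the blood libraries and 2472 ± 15.7 in those of spleen (SD, n = 3). Bone marrow followed with 1455 ± 2.78, then lung with 1150 ± 58, lymph node with 750.7 ± 2.98 and liver with 553 ± 19.6. Cd80 and Cd86 followed another order, with lung highest. All 9 genes differed among the 6 organs in the F test of limma on log2(TPM + 1), with Benjamini-Hochberg adjustment over 16694 genes, as did 68% of all tested genes. The adjusted p ran from 1.56e-14 for H2-Ab1 to 0.00172 for Cd80.

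**Figure D1:**
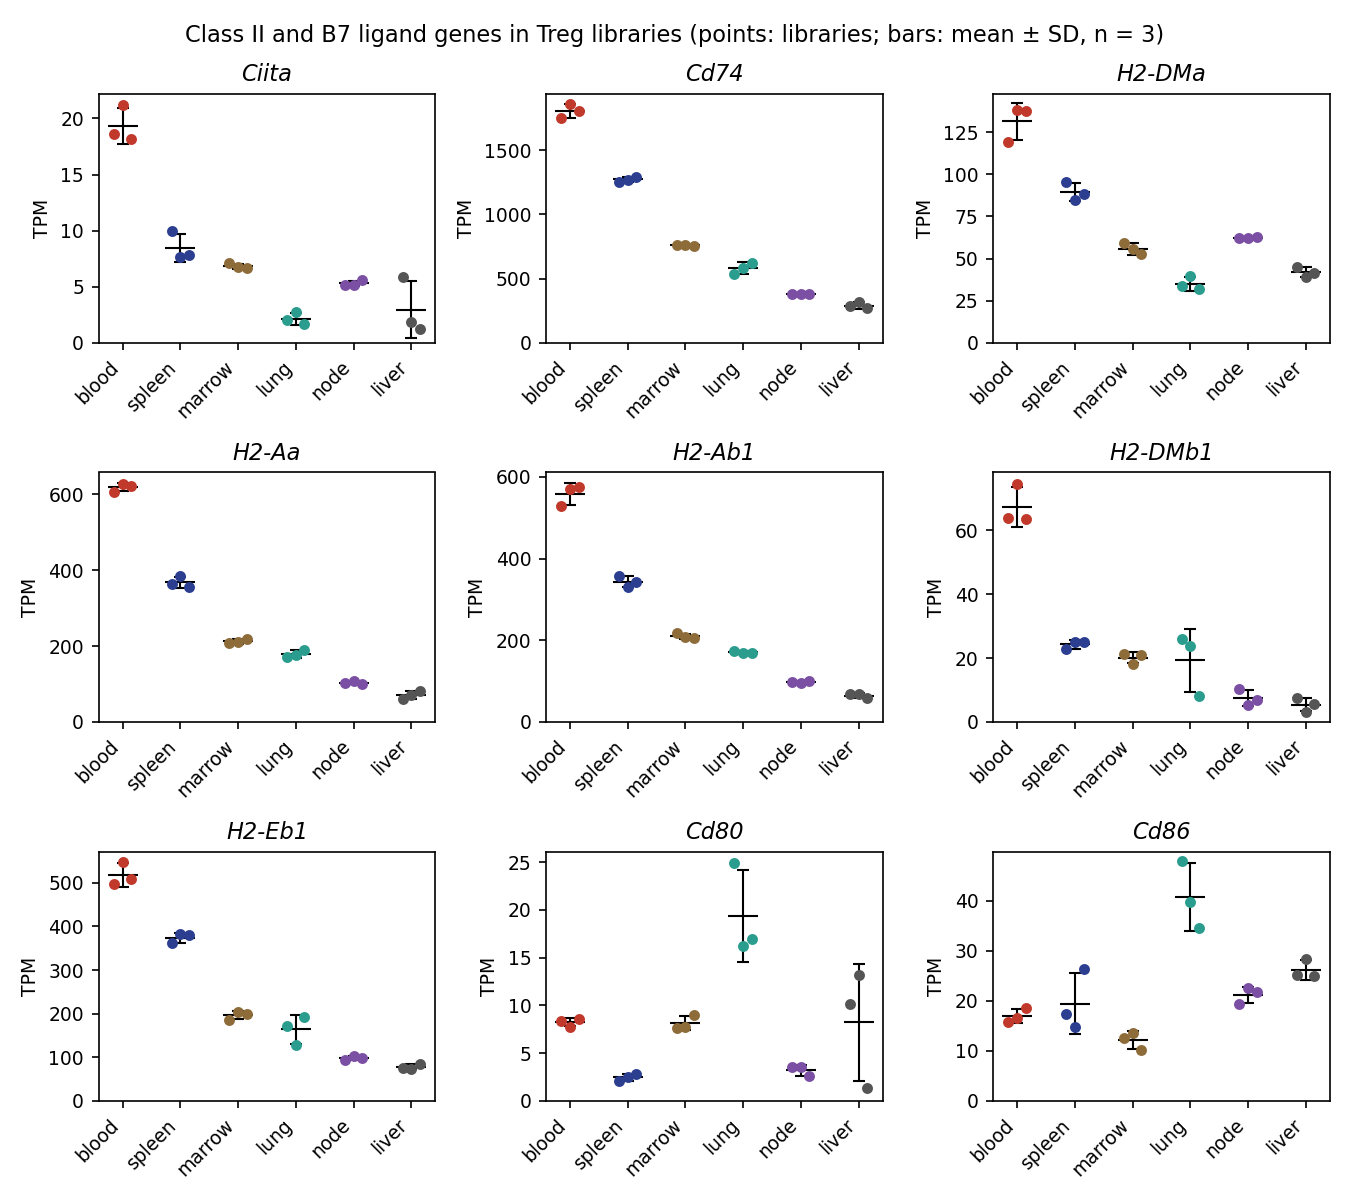
TPM (linear axes from 0) of the 9 genes in each of 18 Treg libraries, by organ, with points for libraries and bars for the mean ± SD of 3. H2-Aa, H2-Ab1, H2-Eb1 and Cd74 descend from blood through spleen, bone marrow, lung and lymph node to liver, while Cd80 and Cd86 are highest in lung.

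Each pair of organs was compared in the same model, and a gene was called at an adjusted p under 0.05. Against spleen, 8 of the 9 genes were higher in blood, all but Cd86. Of all tested genes, 20.1% were higher and 15.3% lower in that comparison. Blood was higher for the 6 class II genes and Ciita, 7 of 9, against each of the other 4 organs. The share of all tested genes higher in blood was 13% against bone marrow, 26.4% against lung, 16.4% against lymph node and 23.3% against liver. Cd86 was lower in blood than in lung and liver, comparisons in which 17.3% and 16.1% of all genes were lower. Lower in blood were 18.8% of genes against bone marrow and 21% against lymph node. The comparisons with blood share the blood libraries and are not independent of each other.

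Spleen exceeded lymph node for the 6 class II genes, 6 of the 9, where 4.44% of all genes were higher and 9.87% lower in spleen. Against bone marrow, 6 genes were higher in spleen (5 class II genes and Cd86) and Cd80 was lower, beside 5.92% and 18.2% of all genes. Against lung, Ciita and 5 class II genes were higher in spleen and Cd80 and Cd86 lower, 6 and 2 of the 9, beside 22.8% and 18%. Against liver, Ciita and the 6 class II genes were higher in spleen, 7 of 9, beside 17.3% higher and 14% lower.

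Bone marrow against lung gave 5 higher genes (H2-Aa, H2-Ab1, Cd74, H2-DMa and Ciita) and lower Cd86, while 30.3% of all genes were higher and 13.2% lower. Against lymph node, 5 genes were higher in bone marrow and Cd86 was lower, beside 13.7% and 8.89%. Against liver, Ciita and the 6 class II genes were higher in bone marrow and Cd86 lower, beside 25.1% and 9.36%. Lung exceeded lymph node for 7 genes, Cd80 and Cd86 included, and was lower for H2-DMa and Ciita, beside 14.9% and 27.4% of all genes. Lung exceeded liver for 7 genes and was lower for H2-DMa, beside 17.3% and 17.6%. Lymph node exceeded liver for 6 genes, beside 21.6% higher and 9.45% lower.

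Over the 15 pairs, 109 of 135 single-gene comparisons were called. The median log2 difference over the 9 genes was 2.63 for blood against liver, where that over all tested genes was 0.07, and 2.24 for blood against lymph node, where it was -0.15. For bone marrow against lung both medians were 0.27, so the count for that pair did not stand apart from a shift of all genes.

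**Figure D2:**
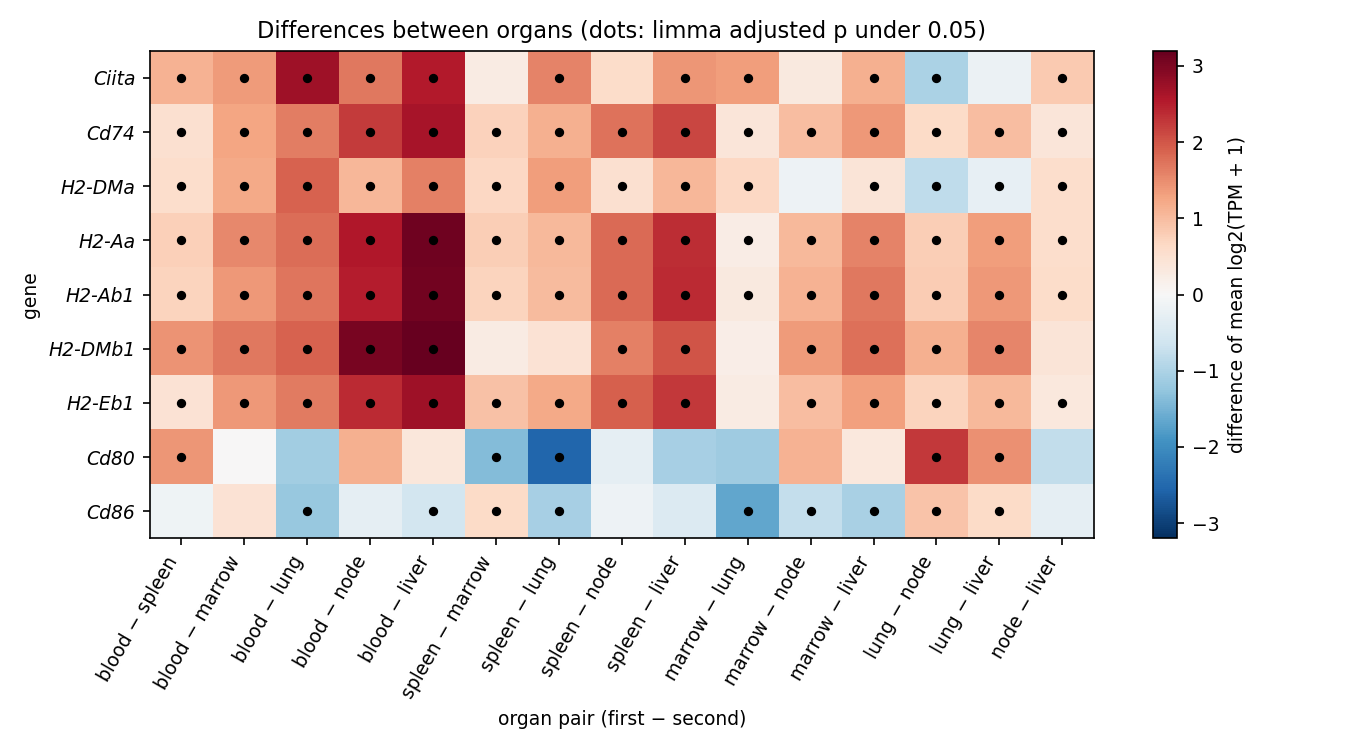
Difference of mean log2(TPM + 1) for each gene (rows) in each of 15 organ pairs (columns, first minus second), with a dot where the adjusted p was under 0.05. The 4 rows of Cd74, H2-Aa, H2-Ab1 and H2-Eb1 are red in every column, whereas the Cd80 and Cd86 rows are blue where lung is the second organ.

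H2-Aa encodes the alpha chain of I-A. It stood at 607, 628 and 621 TPM in the blood libraries and at 364, 385 and 355 in spleen. Bone marrow gave 207, 211 and 219 TPM and lung 172, 177 and 191. Lymph node gave 104, 107 and 100.6 TPM and liver 61.2, 70.6 and 81.1. No organ's range overlapped that of the next, and blood was 8.72 times liver in mean TPM (log2 difference 3.12, SE 0.08, limma adjusted p = 6.26e-14). The smallest step, bone marrow over lung, was 0.24 on the log2 scale with an adjusted p of 0.0197. Without lung replicate 1, lung replicate 2 or bone marrow replicate 3 it was 0.21 to 0.23 with adjusted p of 0.0512 to 0.0691, and with abundant RNA classes removed it was 0.11 with an adjusted p of 0.269.

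H2-Ab1, the beta chain that pairs with H2-Aa, was at 528, 571 and 575 TPM in blood and 356, 331 and 343 in spleen. It was at 217, 207 and 206 TPM in bone marrow and 175, 169 and 169 in lung. Lymph node held 97.3, 94.4 and 99.7 TPM and liver 68.4, 68 and 58.1. Its organs took the same order as those of H2-Aa with no overlap, and all 15 pairs were called, although bone marrow over lung (0.3, adjusted p = 0.00117) was lost with abundant RNA classes removed (0.17, adjusted p = 0.0563). Blood was 8.61 times liver (log2 difference 3.09, SE 0.06, adjusted p = 4.85e-15). The pair of chains kept close to parity: the ratio of H2-Aa to H2-Ab1 averaged 1.01 in bone marrow to 1.11 in blood and liver.

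H2-Eb1, the beta chain of I-E, was at 498, 548 and 508 TPM in blood and at 362, 382 and 379.8 in spleen. Bone marrow held 186, 203 and 199.5 TPM and lung 172, 128 and 192. Lymph node held 93.9, 104 and 98.3 TPM and liver 76.4, 73.4 and 84.8. Lung replicate 2 fell below the other lung libraries, and bone marrow and lung overlapped (log2 difference 0.27, SE 0.11, adjusted p = 0.0522). Without lung replicate 3 the difference was 0.4 (adjusted p = 0.00578). Blood was 6.63 times liver. The step from lymph node to liver (0.33, adjusted p = 0.0284) was not called when lymph node replicate 2 or 3 or liver replicate 1 or 2 was left out (adjusted p 0.0625 to 0.1), nor when libraries were scaled to 20 T cell genes (0.09, adjusted p = 0.619).

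Cd74, the invariant chain, was the most abundant of the 9 genes in every library. It was at 1747, 1860.2 and 1807 TPM in blood and 1255, 1268 and 1295 in spleen. Bone marrow gave 762, 761 and 758 TPM and lung 535, 583 and 626. Lymph node gave 383, 381 and 379.7 TPM and liver 284, 321 and 269. The ranges of neighbouring organs did not overlap, all 15 pairs were called, and blood was 6.19 times liver (log2 difference 2.63, SE 0.06, adjusted p = 1.65e-14). With T cell scaling lymph node over liver was lost (0.15, adjusted p = 0.0648). Cd74 stood in a ratio to H2-Ab1 of 3.24 ± 0.0854 in blood and 4.51 ± 0.31 in liver (SD, n = 3), with the other organs between 3.4 and 3.93. Ratios are given here as descriptions, and differences between them were not tested.

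The 4 chains varied together: over the 18 libraries, the Pearson correlation of log2(TPM + 1) between any 2 of H2-Aa, H2-Ab1, H2-Eb1 and Cd74 was 0.98 to 0.99. These correlations are descriptions, since the points share organs and libraries.

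H2-DMa, the alpha chain of the peptide editor DM, did not follow the classical chains in every organ. It was at 119, 138 and 137 TPM in blood and 95.3, 84.6 and 88.1 in spleen. Lymph node gave 62.3, 61.9 and 62.7 TPM and bone marrow 59.1, 55.7 and 52.5. Liver gave 45.1, 39.1 and 41.7 TPM and lung 33.6, 39.6 and 31.9. Lymph node thus took the third place and lung the last. Blood was 3.75 times lung (log2 difference 1.88, SE 0.09, adjusted p = 1.62e-10). Lung was below lymph node by 0.82 on the log2 scale as deposited (adjusted p = 3.12e-06), and by 0.21 (adjusted p = 0.087) with that scaling. Lymph node and bone marrow did not pass the test (adjusted p = 0.279), and with T cell scaling bone marrow was higher instead. Liver stood above lung at an adjusted p of 0.0423 with overlapping ranges, a call lost on leaving out any of 11 single libraries (adjusted p 0.0512 to 0.143) and turned by the T cell scaling.

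Relative to H2-Ab1, H2-DMa formed separate levels. The ratio averaged 0.235 in blood, 0.26 in spleen, 0.265 in bone marrow and 0.205 in lung, and 0.642 in lymph node and 0.651 in liver. The lowest lymph node or liver library, at 0.575, lay above the highest of the other organs, at 0.273. H2-Ab1, the denominator, varied more between organs than H2-DMa did and was lowest in lymph node and liver. A high ratio there is thus partly built in. Exons of H2-DMa share 360 bases with Brd2, a chromatin reader gene on the opposite strand, which was at 212.9 to 330.6 TPM in the 6 organs, and whether strand was used in counting is not given. Its part in the H2-DMa values was not tested.

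H2-DMb1, the partner chain of DM, was at 63.9, 74.5 and 63.4 TPM in blood and 22.7, 25 and 25.1 in spleen. Bone marrow gave 21.1, 18.1 and 21.1 TPM and lung 25.9, 23.8 and 8. Lymph node gave 10.5, 5.38 and 6.79 TPM and liver 7.57, 3.23 and 5.6. Blood stood 12.3 times above liver in mean TPM (log2 difference 3.46, SE 0.35, adjusted p = 7e-07), the widest ratio among the 9 genes. Spleen, bone marrow and lung did not pass the test against each other (adjusted p 0.303 to 0.678), and lung replicate 3 lay far below the other lung libraries. The call of lung over lymph node (1.13, adjusted p = 0.015) was lost without lymph node replicate 2 or lung replicate 1 or 2 (adjusted p 0.0693 to 0.077). That of bone marrow over lymph node (1.35, adjusted p = 0.00903) was lost without lymph node replicate 2 (adjusted p = 0.0504).

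H2-DMb1 has a near-identical neighbour, H2-DMb2, which encodes another DM beta chain, and reads can be split between them in an uncertain way. H2-DMb2 averaged 79.3 TPM in blood and 69.9 in spleen, then 34.1 (bone marrow), 22.9 (lung), 21 (lymph node) and 9.12 (liver). Their sum was 146.6 ± 5.58 TPM for blood, 94.2 ± 5.77 for spleen, 54.2 ± 1.28 for bone marrow, 42.1 ± 13.5 for lung, 28.6 ± 4.27 for lymph node and 14.6 ± 4 for liver (SD, n = 3). The means of the sum took the organ order of the classical chains. Taken as 1 gene, spleen exceeded bone marrow (log2 difference 0.78, adjusted p = 0.0115) and lung (1.19, adjusted p = 0.000266), and lymph node exceeded liver (0.95, adjusted p = 0.00271). Lung over lymph node, called for H2-DMb1 alone, did not pass the test for the sum (0.5, adjusted p = 0.0669).

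Ciita, the coactivator of the class II genes, was low throughout. It was at 18.6, 21.2 and 18.2 TPM in blood and 9.94, 7.62 and 7.82 in spleen. Bone marrow gave 7.08, 6.75 and 6.68 TPM and lymph node 5.13, 5.18 and 5.6. Liver gave 5.86, 1.86 and 1.22 TPM and lung 2.06, 2.73 and 1.65. Blood was above each other organ with no overlap, by 2.28 times against spleen (adjusted p = 0.00898) and 9 times against lung (log2 difference 2.7, SE 0.3, adjusted p = 2.12e-06). Spleen, bone marrow and lymph node did not pass the test among themselves in this model (adjusted p 0.256 to 0.621), although spleen against lymph node did without liver replicate 1 (0.58, adjusted p = 0.0305).

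Lung and liver were not separated for Ciita (log2 difference -0.18, adjusted p = 0.717), and without liver replicate 1 the sign turned (0.31, adjusted p = 0.237). Lymph node was above lung for Ciita (log2 difference of lung against lymph node -1.02, adjusted p = 0.0132) while below it for those 4 chains. With T cell scaling the Ciita difference was -0.53 (adjusted p = 0.182). The depth behind the low values was small: a Ciita transcript received 3.3 to 16.9 reads per kb in the liver libraries and 6.8 to 11.9 in lung, against 204.3 to 264.7 in blood. The call of lymph node over liver (0.84, adjusted p = 0.0463) was lost on leaving out any of 15 single libraries (adjusted p 0.0511 to 0.191). Exons of Ciita share 329 bases with Dexi on the opposite strand, which was at 12.2 to 22 TPM across organs.

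Cd80, the first of the B7 ligands, was highest in lung, at 24.9, 16.2 and 16.9 TPM. It was at 8.38, 7.79 and 8.59 TPM in blood and at 7.68, 7.76 and 8.98 in bone marrow. Liver gave 10.2, 13.2 and 1.37 TPM, lymph node 3.54, 3.6 and 2.57, and spleen 2.07, 2.49 and 2.87. Each lung library was above every other library. Lung was 5.98 times lymph node (log2 difference 2.25, SE 0.45, adjusted p = 0.000855) and spleen was 0.128 times lung (log2 difference -2.53, adjusted p = 0.000326).

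Several Cd80 calls changed with liver replicate 3, which was at 3.7 reads per kb against 29.4 and 31.3 in the other liver libraries. With all libraries, lung against blood (adjusted p = 0.0596) and against bone marrow (adjusted p = 0.0557) did not pass the test. Without it, blood was below lung by 1.11 on the log2 scale (adjusted p = 0.000173) and bone marrow below lung by 1.13 (adjusted p = 0.000161). Leaving out liver replicate 2 also gave these calls (adjusted p = 0.03 and 0.0278). So did leaving out liver replicate 1, more narrowly (adjusted p just under 0.05 and 0.0463). With every library kept, both were called with a pseudocount of 5 (adjusted p = 0.0174 and 0.0162). Both were also called with library weights (0.0192 and 0.0162) and in fits of only the 2 organs compared (0.00441 and 0.00489). Without liver replicate 3, blood and bone marrow also exceeded lymph node (1.14, adjusted p = 0.000174, and 1.12, adjusted p = 0.000326). Liver then exceeded spleen (-1.86 for spleen against liver, adjusted p = 1.09e-05) and lymph node (-1.58 for lymph node against liver, adjusted p = 5.37e-05). The calls of blood over spleen (1.42, adjusted p = 0.0231) and bone marrow over spleen (-1.4 for spleen against bone marrow, adjusted p = 0.035) were lost without single libraries of spleen, blood or bone marrow (adjusted p 0.0501 to 0.0993), and that of lung over liver (1.47, adjusted p = 0.0199) without lung replicate 1 (adjusted p = 0.07).

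Cd86, the other B7 ligand, also peaked in lung, at 47.9, 39.8 and 34.5 TPM. Liver gave 25.2, 28.4 and 24.9 TPM and lymph node 19.4, 22.5 and 21.7. Spleen gave 17.3, 14.7 and 26.3 TPM, blood 15.8, 16.6 and 18.5, and bone marrow 12.6, 13.6 and 10.3. The lung libraries lay above all others and the bone marrow libraries below all others. Bone marrow was below lung by 1.66 on the log2 scale (SE 0.18, adjusted p = 1.87e-06) and was 0.465 times liver (adjusted p = 0.000293). Blood was below lung by 1.21 (adjusted p = 4.57e-05) and, as deposited, below liver by 0.6 (adjusted p = 0.0151), where T cell scaling turned the sign to 0.33 (adjusted p = 0.123). Liver, lymph node, spleen and blood, neighbours in the order, did not pass the test step by step (adjusted p 0.243 to 0.686), nor did blood over bone marrow (0.46, adjusted p = 0.0671).

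Some Cd86 calls rested on 1 library. Lung over liver (0.61, adjusted p = 0.0155) was lost without lung replicate 1 (adjusted p = 0.0669), blood below liver without blood replicate 1 (adjusted p = 0.0544), and spleen over bone marrow (0.6, adjusted p = 0.0223) without spleen replicate 3 (adjusted p = 0.119) or bone marrow replicate 3 (adjusted p = 0.105). Without spleen replicate 3, blood exceeded bone marrow (adjusted p = 0.0232) and spleen was below liver (-0.68, adjusted p = 0.00541). Bone marrow was below lymph node by 0.76 (adjusted p = 0.00512) as deposited and by 0.21 (adjusted p = 0.4) with T cell scaling.

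The 2 ligands were not in a fixed proportion. Cd86 exceeded Cd80 by a ratio of 7.8 ± 1.69 in spleen and 6.72 ± 1.54 in lymph node, against 2.06 ± 0.147 in blood, 2.14 ± 0.281 in lung and 1.51 ± 0.326 in bone marrow (SD, n = 3). In liver the ratio was 2.15, 2.48 and 18.2, the last in replicate 3. The ratio of Cd86 to H2-Ab1 averaged 0.0304 in blood, 0.0565 in spleen and 0.0579 in bone marrow. It averaged 0.218 in lymph node, 0.238 in lung and 0.405 in liver. H2-Ab1, its denominator, varied more between organs than Cd86 did, so a low ratio where H2-Ab1 was high is largely built in. Over the 18 libraries Cd86 correlated with the 6 class II genes at -0.31 to -0.56 and with Cd80 at 0.4.

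Of 13 other genes of the class II pathway, all 13 passed the F test, and the list mostly followed the blood excess. Blood was higher for 7 against spleen (20.1% of all tested genes), 9 against bone marrow (13%) and 10 against lung (26.4%). It was higher for 11 against both lymph node (16.4%) and liver (23.3%). The median log2 difference of the 13 was 0.66 to 1.55 in these 5 comparisons, where that of all genes was -0.15 to 0.12. Ctss, the protease that trims the invariant chain, averaged 776.6 TPM in blood and 176.6 in liver. The lysosomal proteases Ctsd and Ctsb were at 525.5 and 333.7 TPM in blood against 179.1 and 177.5 in liver. Marchf1, a ubiquitin ligase that removes class II and CD86 from the cell surface, was at 64.5 TPM in blood and 2.01 to 11.5 elsewhere. Its relative Marchf8 was highest in bone marrow at 10.9 TPM and lowest in lymph node at 0.28. H2-Ob, the beta chain of the DM inhibitor DO, ran from 183.9 TPM in blood to 65.5 in liver.

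Cd83, named here after its values were seen, was the member of this list that was lower in blood. It stabilizes class II and CD86 at the cell surface by opposing MARCH1. It was at 21.6 TPM in blood and 24.1 in bone marrow, while lymph node had 69.7, spleen 72.6, lung 95.6 and liver 115.7. Blood was below liver by 2.37 on the log2 scale (SE 0.08, limma adjusted p = 1.21e-12).

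Of 10 genes for factors of the class II promoters, all 10 passed the F test but without a shared direction. In the 5 comparisons with blood, 0 to 3 of them were higher in blood and 2 to 5 lower by limma as deposited. Of all tested genes, 13% to 26.4% were higher and 15.3% to 21% lower in these comparisons. With T cell scaling 5 to 8 were higher in blood, but that scaling raised all genes in blood by a median of 0.56 to 1.1 on the log2 scale. The share of all genes called under it is not given. Rfx5, a subunit of the complex on the X box, was at 37.9 TPM in lymph node, 31.6 in spleen and 14.7 in blood. Its partner Rfxank ran from 14 TPM in liver to 29.6 in spleen. Among Y box factors, Nfya was at 42.7 to 64.8 TPM and Nfyb at 32.8 to 68.1. Ezh2, the methyltransferase of a repressive histone mark, was lowest in lung at 19.7 TPM and highest in bone marrow at 90.3. Hdac2, a histone deacetylase, was at 43.2 to 69.8 TPM.

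Of 12 genes of interferon gamma signalling and other inducers or repressors of Ciita, 11 passed the F test. Of the 12, 6 were higher and 3 lower in blood against spleen (20.1% and 15.3% of all tested genes), 3 and 3 against bone marrow (13% and 18.8%), 4 and 7 against lung (26.4% and 17.3%), 3 and 5 against lymph node (16.4% and 21%), and 2 and 7 against liver (23.3% and 16.1%). With T cell scaling, under the same shift of all genes, these counts became 11 and 1, 10 and 2, 6 and 5, 10 and 1, and 10 and 1. Ifngr1, a chain of the interferon gamma receptor, was at 1736 TPM in lung and 620.2 in liver, with 449.4 for bone marrow, 332.7 for blood, 145.3 for spleen and 131.7 for lymph node. Jak2, a kinase bound to that receptor, was at 377.4 TPM in lung and 55.7 to 102.8 elsewhere, while Jak1 was at 227.8 to 355.2. Irf8, a factor of B and myeloid cells, was at 87.5 TPM in blood, 53.4 in bone marrow and 17.3 to 35.9 in the other organs.

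Class I genes did not share the class II order. Of 15 class I pathway genes 14 passed the F test, and as deposited more were lower than higher in blood against every organ but lung. As deposited, 11 were lower in blood than in spleen, 7 than in bone marrow, 11 than in lymph node and 9 than in liver, with 1 higher in each, where 15.3%, 18.8%, 21% and 16.1% of all tested genes were lower. Against lung, 8 were higher and 3 lower in blood, beside 26.4% and 17.3% of all genes. With T cell scaling, which raised all genes in blood by a median of 0.56 to 1.1, 9 to 15 of them were higher in blood in the 5 comparisons. H2-K1, a class I heavy chain, was at 4180 TPM in blood and 6359 to 7045 elsewhere. H2-D1, another heavy chain, was at 2421 to 2777 TPM, and B2m, the light chain, at 3733 to 4966. Psmb8, an immunoproteasome subunit, ran from 274.9 TPM in lung to 782.8 in spleen, Psmb10 from 103.3 to 424.5, and Tap2, of the peptide transporter, from 80 to 242 in the same organs.

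Of 6 other B7 family ligands found in the tables, 4 were expressed enough to be tested and all 4 passed the F test. Cd274 (PD-L1), a ligand of PD-1, had an organ pattern with lung and liver high, at 69.1 and 68.2 TPM against 27.6 to 33.9 elsewhere (blood against lung -1.27, SE 0.08, adjusted p = 5.4e-09). Icosl, the ligand of ICOS, ran the other way, from 32.8 TPM in blood and 27.7 in bone marrow to 6.93 in lung (blood against lung 2.13, adjusted p = 2.33e-07). Vsir, an inhibitory ligand, was likewise high in blood at 213.4 TPM and in bone marrow at 196.3, and lowest in lung at 61.9. Blood and bone marrow overlapped for Vsir and did not pass the test (0.12, limma adjusted p = 0.426). Pdcd1lg2 (PD-L2) was lowest in blood at 3.07 TPM and at 7.82 to 11.3 elsewhere. Vtcn1 was listed at 0 in every library.

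The receptors of these ligands were mostly lower in blood as deposited. Of 7 receptor genes, 6 were lower in blood than in spleen (15.3% of all tested genes) and 6 than in bone marrow (18.8%). Cd28 was higher in blood than in bone marrow (13%). All 7 were lower than in lung (17.3%), lymph node (21%) and liver (16.1%). With T cell scaling, which uses T cell genes of the same kind, 3 to 5 were lower and 0 to 2 higher. That scaling raised all genes in blood by a median of 0.56 to 1.1 on the log2 scale. The share of all genes called under it is not given. Ctla4, the inhibitory receptor of CD80 and CD86, was at 1486 TPM in lung and 1064 in liver, followed by lymph node with 334.6, bone marrow with 302.3, spleen with 200.7 and blood with 133.9. With T cell scaling Ctla4 was higher in blood than in spleen (0.39, limma adjusted p = 5.66e-05, from -0.58). The ratio of Cd86 to Ctla4 was 0.127 ± 0.0164 in blood and 0.0273 ± 0.00345 in lung (SD, n = 3), although lung had the highest level of both. Icos was at 421.9 TPM in lung and 30.7 in blood, and Pdcd1 (PD-1) at 295.4 and 4.66. Lag3, a receptor of class II, was highest in lymph node at 83.1 TPM and at 2.22 in blood. Cd4, the coreceptor of class II, was at 154.7 TPM in blood and 273.7 to 402.9 elsewhere, and Cd3e, of the T cell receptor complex, at 277.2 and 430.5 to 690.6.

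Class II and B7 genes are typical of B cells, dendritic cells and macrophages, and genes of these cells were present in the Treg libraries. Their organ orders differed from that of class II, for the B cell genes without immunoglobulins only in lung and lymph node. Of 12 B cell genes other than immunoglobulins, all 12 were at 1 TPM or above in each organ. Their sum was 784.3 to 811.6 TPM in blood, 620.9 to 707.1 in spleen, 608.7 to 638.6 in bone marrow, 196.7 to 206.5 in lymph node, 149.9 to 197.8 in lung and 93.1 to 123.5 in liver. This differed from the class II order only in lung and lymph node, which trade places in the mean while their ranges overlap. Of the 14 B cell genes, immunoglobulins included, 4 were called lower and 0 higher in lung than in lymph node. Of all tested genes, 27.4% were lower and 14.9% higher. T cell scaling, which raised lung against lymph node by a median of 0.55 on the log2 scale over all genes, was not applied to these sums. With Ighm and Ighd, the immunoglobulin heavy chain genes of the list, spleen was highest, at a mean of 2053 TPM against 1587 in blood. Their part in the class II values was not tested, and in bulk libraries fewer cells of a type and less RNA per cell cannot be told apart.

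Class II was not in a fixed proportion to B cell genes. The ratio of H2-Ab1 to Cd79b, a signalling chain of the B cell receptor, was 5.18 ± 0.276 for lung, 3.34 ± 0.166 for blood, 2.99 ± 0.898 for liver, 2.09 ± 0.142 for spleen, 2.06 ± 0.0198 for lymph node and 1.33 ± 0.0692 for bone marrow (SD, n = 3). Spleen and lymph node thus had nearly the same ratio while H2-Ab1 itself differed 3.54 times between them.

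The 16 monocyte and macrophage genes summed to 8783 to 9012 TPM in blood, 3464 to 3564 in bone marrow, 1166 to 1273 in lung, 228.1 to 250 in spleen, 201.3 to 239.3 in liver and 69.4 to 75.1 in lymph node. Spleen, second for class II, thus took the fourth place for these genes. In lymph node 12 of the 16 averaged under 1 TPM, Csf1r, Adgre1 and C1qa among them, and Vsig4 was at 0 in every library. Without Cst3, the most abundant of 10 conventional dendritic cell genes, the sum of the other 9 was 199 to 203.5 TPM in blood, 62.4 to 69.8 in lung, 64.5 to 66.5 in bone marrow, 36.4 to 42 in spleen, 9.13 to 17 in liver and 10.7 to 14.3 in lymph node. With Cst3 the sum averaged 1002 TPM for blood, 342.1 for bone marrow, 237.8 for lung, 208 for spleen, 123.9 for liver and 116.5 for lymph node. Of the 9, 7 averaged under 1 TPM in lymph node, Flt3, Zbtb46, Xcr1 and Clec9a among them, where H2-Ab1 was at 97.1 ± 2.61 TPM. In lung, the organ of highest Cd80 and Cd86, 5 of the 9 were at 1 TPM or above, and Flt3, Clec9a, Cd209a and Clec10a were under it. Plasmacytoid dendritic cell genes (8) summed to 212.8 to 236.1 TPM in bone marrow, 167.5 to 191.5 in blood, 148.6 to 181.5 in spleen and 53 to 73.8 in the other organs, with Siglech at 0 in liver. Their part in the class II and B7 values was not tested.

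**Figure D3:**
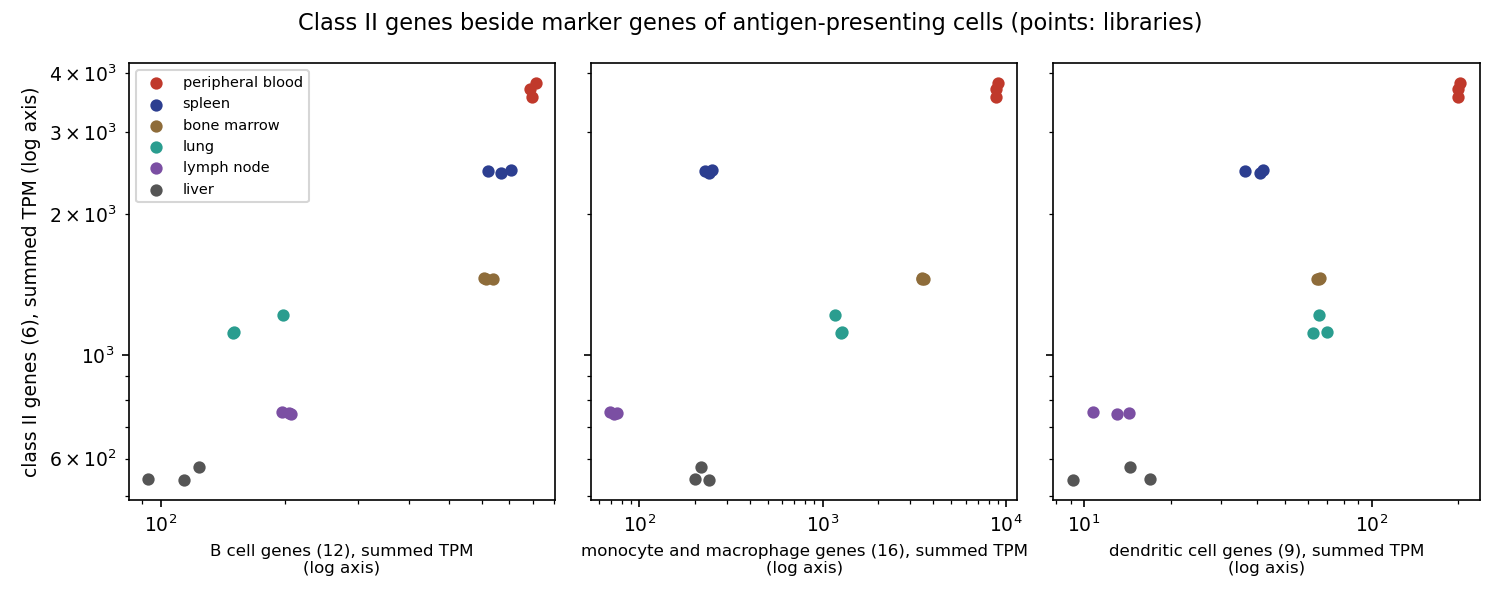
Summed TPM of 6 class II genes (vertical log axis) against the summed TPM of 12 B cell, 16 monocyte and macrophage, and 9 conventional dendritic cell genes without Cst3 (horizontal log axes), with 1 point per library coloured by organ. Blood is highest on every axis, while spleen has the second highest class II sum with few monocyte transcripts (228.1 to 250 TPM).

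Relative to Foxp3, the transcription factor that defines Treg cells, H2-Ab1 stood in a ratio of 6.29 ± 0.152 in blood, 2.47 ± 0.248 in spleen, 1.42 ± 0.0436 in bone marrow, 0.742 ± 0.0389 in lung, 0.436 ± 0.022 in liver and 0.407 ± 0.00739 in lymph node (SD, n = 3). Liver and lymph node overlapped in this ratio, the other neighbours did not.

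The genes most like each member over the 18 libraries were ranked by Pearson's r of log2(TPM + 1) among 10699 genes, as a description with no test. Apart from the other members, H2-DMb2 was closest to H2-Aa, H2-Ab1, H2-Eb1 and Cd74, at an r of 0.952 to 0.955. The B cell genes Bank1 and Ms4a1, the protease gene Ctsz, Rubcnl and the myeloid factor gene Cebpa came next among them. H2-DMa was closest to H2-Ob (0.941), followed by Clec2i and Slfn2, and H2-DMb1 to Ctsh (0.926), Scd1 and Cebpa. Ciita was closest to the B cell genes Cd180 (0.949) and Fcer2a (0.937), with Cd22 further down the 5.

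The B7 ligands had other neighbours. Cd86 was closest to Gbp3, an interferon-induced GTPase gene (0.939), and to Lrrc32 (0.93), which encodes GARP, a surface protein of activated Treg cells that holds latent TGF-beta. Cytip, Adamts6 and Plcxd2 followed at 0.914 to 0.919. Cd80 was closest to Heatr5a (0.903), Ets2, Herpud2, Acod1 and Topors, at 0.88 or above.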

How the data were processed

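The authors deposited 1 table of TPM values per library, given for 55487 Ensembl genes. STAR, RSEM and mm10 are named in the submitters' processing notes, without versions. The annotation and the strand setting are not given in the sources used here. Libraries were made with a directional kit, per the labels' protocols. Symbols were looked up in GENCODE M21 (55141 IDs matched). The deposited values summed to 999999.27 to 1000000.62 per library, and no 2 tables were identical.

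The 9 genes and all lists were chosen with earlier results of these data known. Expression was compared with limma 3.58.1 in R 4.3.3 on log2(TPM + 1), so that differences of low genes are understated. The test took 16694 genes, those whose organ mean reached 1 TPM in any organ, in 1 model over 18 libraries with eBayes trend and robust settings. P-values were adjusted by Benjamini-Hochberg within each of 15 organ pairs over all genes tested, and calls used 0.05. The script was tested on simulated data: for blood against spleen, on 16694 genes, it called 42 of 100 genes changed by 1 on the log2 scale and 80 of 100 changed by 2. Of the 16494 unchanged genes, 8 were called. In the deposited data 20.1% of genes were higher and 15.3% lower in this comparison. The cut-off set by the adjustment therefore differed, and these rates do not carry over to the calls given here.

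From each other list the text names up to 4 genes with the highest organ mean and up to 3 of widest range among those passing the F test, except 1 gene that is not reported here; 5 genes most like each member were taken among genes of at least 5 TPM in an organ. Depth came from the steps between low TPM values of 12062 genes with 1 transcript; 72.1% to 91.7% of values of up to 8 reads lay within 0.1 of a whole read. Promoter windows were those of RefSeq on GRCm38.p6. Alternatives were other pseudocounts, filters and scalings (20 T cell genes, removal of 139 abundant RNA genes, median of ratios), library weights, a replicate block, fits of 2 organs, and leaving out libraries. Fits without blood or liver libraries and the sum of H2-DMb1 and H2-DMb2 were added after seeing the data.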

Additional observations from a re-analysis of the deposited data

How the results depend on the processing

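All 9 genes passed the F test under every alternative run, including without each of the 18 libraries in turn (9 to 9). The 109 calls over 15 organ pairs became 106 to 113 under the other settings and 104 to 114 on leaving out 1 library. Of 2430 single-gene values with 1 library left out, 2359 stayed called or stayed uncalled, and no called value changed direction. Values that were uncalled in both fits could change sign within that count. Scaling to 20 T cell genes moved the median of all genes by up to 1.1 on the log2 scale (blood against lymph node). It turned the sign of 5 results that were called as deposited or after scaling. Sign changes of results called in neither fit were not counted. H2-DMa turned in bone marrow against lymph node to 0.42 (from -0.16) and in lung against liver to 0.11 (from -0.26). Cd86 turned in blood against spleen to 0.78 (from -0.15), against lymph node to 0.84 (from -0.3) and against liver to 0.33 (from -0.6). The cause was not tested. With the replicate block the calls numbered 108, and H2-DMa in lung against liver was lost (adjusted p = 0.059). Deviations of same-numbered libraries correlated at -0.03 to 0.03, and those of differently numbered libraries at -0.03 to 0.04. No pairing by number was seen, but such a check cannot show that same-numbered libraries came from different animals or sorts. Without the blood libraries 68 calls were made over the 10 other pairs (71 with them), and without the liver libraries 78 (72 with them). Liver was the least deep organ, at 0.379 TPM per read and kb, which limits Ciita and Cd80 there.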

Other observations

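The summed levels of other lists showed plasma cell genes at 157.3 to 173.3 TPM in spleen and 85.3 to 101.3 in bone marrow against 5.13 to 26.4 in the other organs. Erythroid genes averaged 11468 TPM in liver, 6419 in bone marrow and 74.4 in lymph node.

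H2-Ea-ps, the annotated pseudogene of the I-E alpha chain and named here after its values were seen, was listed at 0 in 16 of 18 libraries. It was at 0.5 TPM in lung replicate 2 and 0.19 in blood replicate 1, while H2-Eb1, the beta chain of I-E, averaged 78.2 to 518.1 TPM across organs.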
